A study of Mus musculus with 22 samples.

Results

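The antigen presentation genes described here are the class I heavy chain genes H2-K1, H2-D1 and H2-T23, the light chain gene B2m, the peptide loading gene Tapbp and the class II pathway genes H2-DMa and H2-Ab1. They were chosen by gene name, with earlier results of these data known, so counts of higher and lower regions among them are not independent evidence. Every H3K4me3 region that the deposited tables assign to one of these 7 genes was taken, whatever its place in the gene. That gave 11 regions of 26201 in 4 tables, of which 6 were in the 3 week table, 1 in the 8 week table, 3 in the 11 week table and 1 in the TNF table. H3K4me3, trimethylated lysine on histone H3, is a mark of active promoters, and it was measured by ChIP-seq in cultured mouse synovial fibroblasts, which line the joint and become invasive in arthritis. The groups compared were Tg197 cells from mice of 3, 8 and 11 weeks, taken by the submitters as early, established and late disease, and wild-type (WT) cells of 8 weeks treated with TNF at a dose and for a time that the labels do not state. Each was set against untreated WT cells of the same age. Tg197 mice overexpress human TNF from a transgene, which gives them chronic polyarthritis. All groups shared the strain CBA x C57BL/6J and were at passages 4 to 5, and each had 3 libraries, which the tables do not number and which are called a, b and c here. The mixed strain matters to these genes, because the MHC is polymorphic between mouse strains and the labels do not state the haplotype of each library. Nor do they say whether replicates were separate animals or separate cultures, so p-values measure only the spread between these libraries.

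Class I molecules consist of a polymorphic heavy chain and beta-2 microglobulin and show peptides of cytosolic origin to CD8 T cells on almost all nucleated cells. Peptides reach them through the TAP transporter and the loading complex that tapasin organises. Class II molecules are chiefly a product of professional antigen presenting cells and of other cells after interferon-gamma, and their peptides are exchanged by H2-DM. TNF and interferons are known to raise class I genes through NF-kB, IRF1 and NLRC5, while CIITA drives class II genes.

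Each table lists only regions whose best window passed p of 0.0001 in the authors' comparison, so a gene that is not listed may carry the mark at an equal level in both groups or may not carry it. Values are the authors' normalized reads in a region. Higher and lower are used for the authors' deposited adjusted p under 0.05 and rose and fell for limma's Benjamini-Hochberg adjusted p under 0.05 over all listed regions of the table. Listing itself depended on a difference between the same libraries, so neither p is independent evidence. The listed regions held 1560964 to 2780938 reads per library at 3 weeks, 390496 to 849692 at 8 weeks, 807633 to 1096917 at 11 weeks and 321448 to 1312112 in the TNF table. Most listed regions were lower in Tg197 or TNF-treated cells, and the median log2 change over a table was -0.70 for the 3 week, -0.86 for the 8 week, -0.60 for the 11 week and -0.58 for the TNF table. The regions of the 7 genes held between 73 and 1109 reads per library.

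By the authors' test, the listed promoter regions of H2-K1, H2-D1, H2-T23, B2m and Tapbp were higher in Tg197 or TNF-treated cells, and of the class II pathway genes H2-DMa was lower and H2-Ab1 higher. Of the 11 regions, 8 were higher and 3 were lower. At 3 weeks 4 were higher (H2-K1, H2-D1, H2-T23 and Tapbp), where 9.71% of all listed regions and 39.7% of those within 3 kb of a transcription start site (TSS) were higher. The 2 lower ones at 3 weeks, in the gene body of H2-K1 and upstream of H2-DMa, had the direction of 89.5% of that table. At 8 weeks the 1 listed region, upstream of H2-DMa, was lower, as were 77.2% of regions. At 11 weeks all 3 (H2-K1, B2m and H2-Ab1) were higher, where 29.8% of all regions and 46.6% of promoter regions were. In the TNF table the 1 region, at H2-K1, was higher, where 24.6% of all regions and 38.9% of promoter regions were. In limma 5 regions rose and 2 fell, and 4 did not pass. The shares of whole tables that rose were 4.68% at 3 weeks, 29.6% at 11 weeks and 16.5% with TNF, while 88.9% fell at 3 weeks and 0.0% fell at 8 weeks. The 3 Tg197 or TNF-treated libraries did not overlap the 3 WT libraries in 9 of the 11 regions, against 92.6% of all regions in the 3 week, 63.2% in the 8 week, 95.9% in the 11 week and 74.2% in the TNF table.

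**Figure D1:**
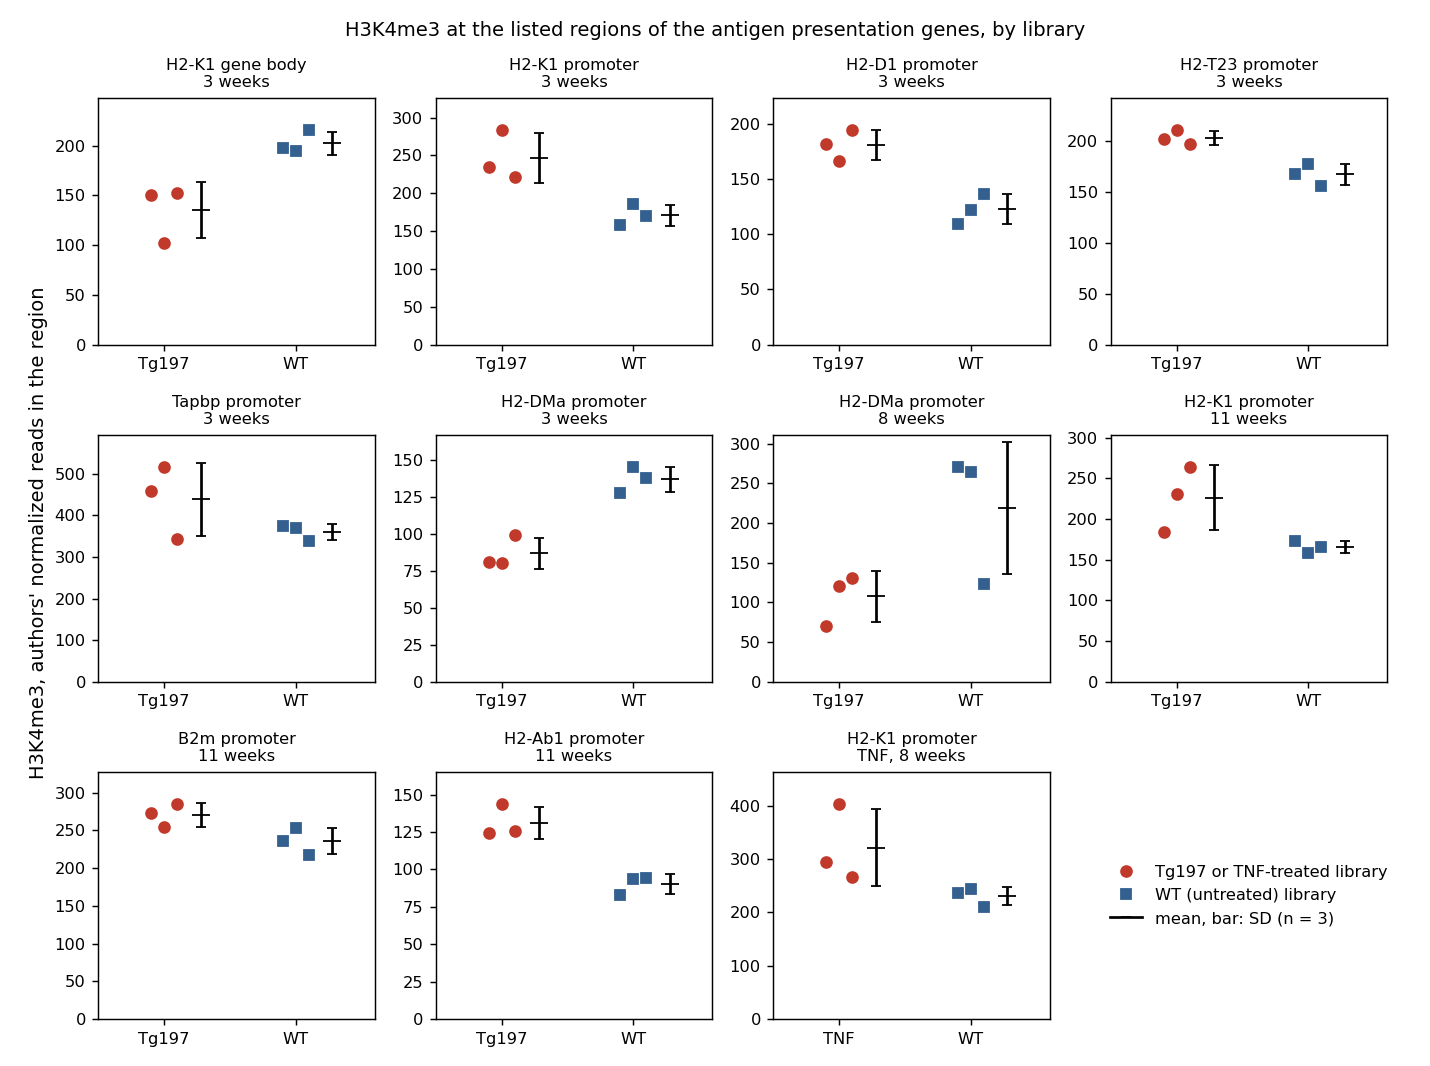
Normalized H3K4me3 reads (y axes, from 0) in each of the 11 listed regions, with 1 point per library, Tg197 or TNF-treated libraries on the left as red circles and untreated WT libraries on the right as blue squares, and the mean with its SD (n = 3) beside them. The groups are apart in 9 panels and overlap at Tapbp at 3 weeks and H2-DMa at 8 weeks.

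H2-K1, a classical class I heavy chain, was the only one of the 7 genes with a listed promoter region in 3 tables. At 3 weeks the region from 77 to 1176 bp after its start (chr17:34136101-34137200 on mm9) had 235.3, 283.5 and 221.3 normalized reads in the Tg197 libraries, against 157.5, 185.5 and 170.0 in the WT libraries. All Tg197 libraries lay above all WT libraries, and the region rose with a log2 change of 0.52 ± 0.17 (SE, limma adjusted p = 0.0166). At 11 weeks the region from 277 to 1576 bp (chr17:34135701-34137000) had 184.2, 230.5 and 263.7 normalized reads in Tg197, against 173.3, 157.9 and 166.3 in WT. The groups did not overlap, although the lowest Tg197 library lay close to the highest WT library, and the region rose by 0.43 ± 0.13 on the log2 scale (limma adjusted p = 0.00797). With TNF the region from 423 bp before to 876 bp after the start (chr17:34136401-34137700) had 294.9, 402.8 and 266.9 normalized reads in the treated cells, against 236.8, 244.6 and 210.9 in untreated WT cells. The groups were again apart, and the region rose by 0.46 ± 0.17 (limma adjusted p = 0.0484).

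The 3 regions at the start of H2-K1 share 600 bases. Each table was normalized separately, so their changes were not tested against each other. The log2 changes lie beside medians of 0.40, 0.48 and 0.46 over the promoter regions that were higher in the 3 week, 11 week and TNF tables. At 3 weeks the change was 0.46 without WT library a (limma adjusted p = 0.0674) and 0.52 without WT library c (limma adjusted p = 0.0646), where limma called 0 regions of the whole table and 9776 had an unadjusted p under 0.05. At 11 weeks the call held without any 1 library, where 6139 to 6276 of the 6593 regions of the table passed. With TNF the call at H2-K1 held without treated library a only. The adjusted p in limma ran from 0.0772 to 0.161 when one of the other libraries was left out.

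The 3 week table also listed the far end of H2-K1. The region from 2777 to 4276 bp after the start, in a gene annotated as 4322 bp long (chr17:34133001-34134500), had 150.2, 102.6 and 152.1 normalized reads in Tg197, against 197.4, 194.5 and 215.6 in WT. All Tg197 libraries lay below all WT libraries, and the region fell by 0.60 ± 0.19 on the log2 scale (limma adjusted p = 0.0156), beside a median of -0.70 over the table. The deposited enrichment there was 2.73 in Tg197 and 2.96 in WT, while at the start of the gene it was 9.36 in Tg197 and 4.32 in WT. Without WT library c the change was -0.56 (limma adjusted p = 0.0647). The start of H2-K1 and its far end thus differed in direction in the same libraries under the authors' scaling, and the difference between them was not tested.

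**Figure D2:**
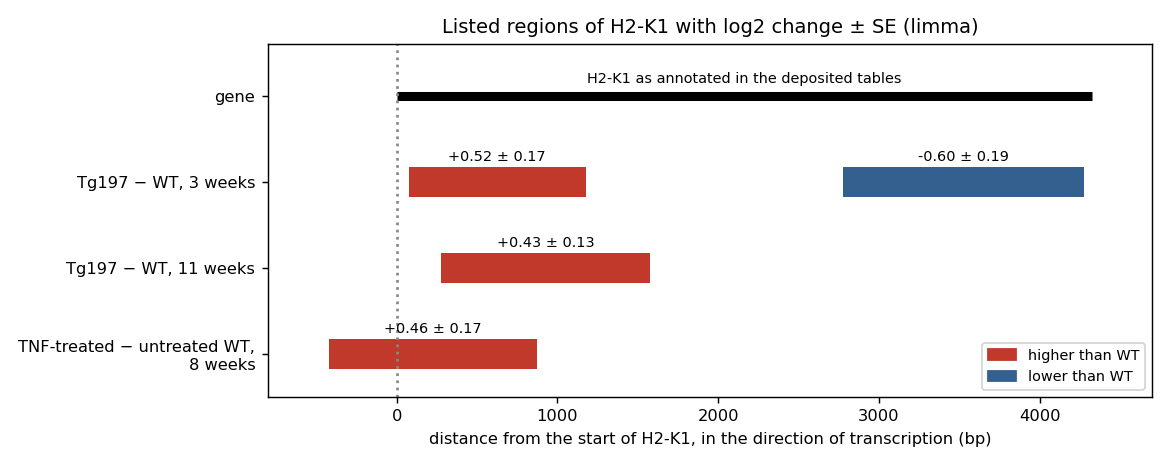
Listed regions of H2-K1 by distance from its start in bp (x axis), 1 row per comparison under a bar for the annotated gene, with the log2 change ± SE (limma, n = 3 each) above each region, red for higher and blue for lower than WT. The regions near the start have 0.52, 0.43 and 0.46, and the region at the far end has -0.60 at 3 weeks.

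H2-D1, the other classical class I heavy chain among the 7 genes, was listed at 3 weeks only. Its region from 237 bp before to 1162 bp after the start (chr17:35399801-35401200) had 181.2, 166.4 and 194.2 normalized reads in Tg197, against 109.2, 121.8 and 136.8 in WT. The groups were apart, and the region rose by 0.56 ± 0.17 on the log2 scale (limma adjusted p = 0.0150). The change was 0.48 without WT library a (limma adjusted p = 0.0615) and 0.64 without WT library c (limma adjusted p = 0.0646). H2-T23, which encodes the non-classical molecule Qa-1 that presents leader peptides of other class I chains, was also listed at 3 weeks only. Its region from 355 bp before to 644 bp after the start (chr17:36169001-36170000) had 202.7, 211.0 and 196.9 normalized reads in Tg197, against 168.0, 177.7 and 156.5 in WT. The groups did not overlap, and the log2 change of 0.28 ± 0.16 did not pass limma (adjusted p = 0.109), while the authors' deposited table gives an adjusted p of 2.89e-08. Class I genes form a multigene family with related sequences, and no source used here says how the authors placed reads that match several copies, so the assignment of signal between them is uncertain.

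The promoters of H2-K1 and H2-D1 are close copies, and they are printed with that of B2m, which the same factors are known to control, and of H2-T23. The regions of both B2m and H2-T23 did not pass limma. RefSeq promoter windows on GRCm38.p6, from 250 bases before to 50 bases after a start, were found for 6 of the 7 genes. They are on another build than the tables, so no region was placed on them. Each is given 5′ to 3′ on the strand of its gene, at chr17:34000284-34000583 (minus) for H2-K1, chr17:35262844-35263143 (plus) for H2-D1, chr2:122147437-122147736 (plus) for B2m and chr17:36032652-36032951 (minus) for H2-T23. For H2-K1 RefSeq has 2 starts 14 bases apart, and the window of the downstream one is shown. Capitals mark matches on either strand to the NF-kB consensus, to GAANNGAAA (an interferon regulatory factor pattern), to the doubled GAAA (GAAA, 2 bases of any kind and GAAA again, a variant searched after the windows had been seen), to TGACG (the core of the X2 and cyclic AMP response element) and to CCAAT (the Y box).
H2-K1: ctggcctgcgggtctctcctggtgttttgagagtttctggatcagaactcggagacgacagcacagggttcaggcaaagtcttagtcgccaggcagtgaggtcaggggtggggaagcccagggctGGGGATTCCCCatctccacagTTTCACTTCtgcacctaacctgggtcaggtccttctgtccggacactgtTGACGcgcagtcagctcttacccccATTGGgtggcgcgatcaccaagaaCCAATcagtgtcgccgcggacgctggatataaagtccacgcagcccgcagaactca
H2-D1: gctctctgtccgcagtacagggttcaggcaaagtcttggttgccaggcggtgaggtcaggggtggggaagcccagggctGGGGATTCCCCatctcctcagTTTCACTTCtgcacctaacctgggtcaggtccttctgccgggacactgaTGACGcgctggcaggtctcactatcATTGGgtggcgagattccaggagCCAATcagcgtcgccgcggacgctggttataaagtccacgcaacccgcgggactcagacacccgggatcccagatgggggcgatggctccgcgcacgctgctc
B2m: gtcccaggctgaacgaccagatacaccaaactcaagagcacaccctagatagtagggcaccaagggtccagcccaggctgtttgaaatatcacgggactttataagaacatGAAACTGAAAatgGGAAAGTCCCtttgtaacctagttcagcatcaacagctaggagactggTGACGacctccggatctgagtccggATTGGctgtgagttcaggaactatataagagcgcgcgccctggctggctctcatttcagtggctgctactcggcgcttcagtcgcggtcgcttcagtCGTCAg
H2-T23: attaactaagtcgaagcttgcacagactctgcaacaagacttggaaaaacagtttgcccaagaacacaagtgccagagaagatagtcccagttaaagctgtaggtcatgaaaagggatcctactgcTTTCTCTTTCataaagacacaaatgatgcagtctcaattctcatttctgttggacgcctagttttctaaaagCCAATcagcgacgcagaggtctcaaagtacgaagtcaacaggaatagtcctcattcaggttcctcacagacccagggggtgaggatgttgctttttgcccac

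H2-K1 and H2-D1 had the same base at 222 of 253 aligned positions (87.7%). In both, a pair of NF-kB matches that overlap by all but 1 base was followed by GAANNGAAA at 21 bases, TGACG at 70 bases and CCAAT at 95 bases, counted between first bases. A further CCAAT followed at 119 bases in H2-K1 and 118 bases in H2-D1. B2m held 1 NF-kB match, TGACG at 48 bases and CCAAT at 73 bases from it, a further TGACG match after its start, and a doubled GAAA beginning 139 bases before the start, next to the NF-kB match. H2-T23 held 1 doubled GAAA and 1 CCAAT. The window of Tapbp, not shown, held 2 CCAAT matches and none of the other patterns. Over all 32851 windows of this kind, 4.51% held the NF-kB consensus, 7.52% GAANNGAAA, 3.44% the doubled GAAA, 20.8% TGACG and 37.4% CCAAT, and 14 windows (0.0426%) held all of these but the doubled GAAA. These are letter matches and not measured binding.

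B2m, the light chain that all class I molecules need to reach the cell surface, was listed at 11 weeks only. Its region from 121 bp before to 878 bp after the start (chr2:121973301-121974300) had 273.1, 254.1 and 284.6 normalized reads in Tg197, against 236.2, 252.9 and 217.9 in WT. The groups did not overlap, with 1 Tg197 library just above the highest WT library, and the log2 change of 0.20 ± 0.10 did not pass limma (adjusted p = 0.0704). The authors' deposited table gives it a log2 fold of 0.20 and an adjusted p of 1.63e-08. Tapbp, which encodes tapasin, the chaperone that holds empty class I molecules at the TAP transporter, was listed at 3 weeks. Its region from 21 bp before to 1278 bp after the start (chr17:34056401-34057700) had 458.6, 516.0 and 343.5 normalized reads in Tg197, against 373.9, 369.9 and 338.9 in WT. Tg197 library c lay within the WT range, and the log2 change of 0.26 ± 0.19 did not pass limma (adjusted p = 0.190), while without that library it was 0.43 (limma adjusted p = 0.00938).

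H2-DMa, the alpha chain of the molecule that exchanges peptides on class II, was listed upstream of its start in both of the earlier Tg197 comparisons, and it was lower in both. At 3 weeks the region from 2414 to 1315 bp before the start (chr17:34270201-34271300) had 81.1, 80.6 and 99.1 normalized reads in Tg197, against 128.1, 145.3 and 138.0 in WT. The groups were apart, and the region fell by 0.66 ± 0.18 on the log2 scale (limma adjusted p = 0.0143), close to the median of -0.65 over the promoter regions that were lower in that table. Without WT library c the change was -0.65 (limma adjusted p = 0.0646). At 8 weeks the region from 1714 to 215 bp before the start (chr17:34270901-34272400) had 70.5, 121.4 and 130.7 normalized reads in Tg197, against 270.5, 263.9 and 123.4 in WT. WT library c lay among the Tg197 libraries, and the log2 change of -0.99 ± 0.37 did not pass limma (adjusted p = 0.0725). Without WT library c it was -1.36 (limma adjusted p = 0.00281), and limma called 2563 regions of the table without that library, against 0 with it. The regions of 3 and 8 weeks share 400 bases and neither reaches the start that the tables use. RefSeq on GRCm38.p6 has 2 starts of H2-DMa, 2686 bases apart. The regions were not placed against these, so upstream refers only to the start in the tables.

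H2-Ab1, the beta chain of the class II molecule I-A, was listed at 11 weeks and higher in Tg197. Its region from 783 bp before to 416 bp after the start (chr17:34399401-34400600) had 124.2, 143.4 and 125.6 normalized reads in Tg197, against 82.8, 93.3 and 94.4 in WT. The groups were well apart, and the region rose by 0.54 ± 0.15 on the log2 scale (limma adjusted p = 0.00511). The region passed limma under every other setting run and without any 1 library, with log2 changes from 0.39 to 0.88 and from 0.47 to 0.57. This was common at 11 weeks, where 95.9% of listed regions had no overlap. Of 6593 listed regions limma called 6414, and 6139 to 6276 with 1 library left out. With scaling to listed regions at most 1 kb from a TSS limma called 6005, and with scaling to all listed regions 2759. The deposited enrichment was low, at 1.61 in Tg197 and 1.07 in WT, against medians of 3.28 in Tg197 and 3.27 in WT over the promoter regions of the table. The class II genes H2-Aa and H2-Eb1, the invariant chain gene Cd74 and the class II activator gene Ciita had no listed region in any table.

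Per kb of region, so that genes can be set side by side within a table, levels at 3 weeks were highest at Tapbp, with 338.0 ± 67.6 normalized reads per kb in Tg197 and 277.6 ± 14.8 in WT (SD, n = 3 each). H2-K1 followed with 224.3 ± 29.7 in Tg197 and 155.5 ± 12.8 in WT, and H2-T23 with 203.5 ± 7.1 in Tg197 and 167.4 ± 10.6 in WT. The libraries of H2-K1 and H2-T23 overlapped in both groups, and their order turned between Tg197 and WT. H2-D1 had 129.0 ± 9.9 in Tg197 and 87.6 ± 9.9 in WT, and the region upstream of H2-DMa had 79.0 ± 9.6 in Tg197 and 124.7 ± 7.8 in WT. At 11 weeks B2m had 270.6 ± 15.4 normalized reads per kb in Tg197 and 235.7 ± 17.5 in WT. H2-K1 had 174.0 ± 30.7 in Tg197 and 127.5 ± 5.9 in WT, and H2-Ab1 had 109.2 ± 8.9 in Tg197 and 75.1 ± 5.3 in WT. These 3 genes kept that order in both groups, without overlap between their libraries.

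The deposited enrichment, a ratio with 1 value per group and no error, had the same direction as the normalized reads in all 11 regions, but its size differed. At H2-K1 it was 11.61 in TNF-treated and 3.67 in untreated WT cells, a ratio of 3.16, where the normalized reads gave 1.39. At 3 weeks Tapbp had an enrichment of 13.07 in Tg197 and 7.03 in WT, H2-D1 4.08 in Tg197 and 1.94 in WT, and H2-T23 5.17 in Tg197 and 2.90 in WT. This gap ran through whole tables, since the log2 ratio of enrichments exceeded the deposited log2 fold by a median of 1.04 in the TNF table, 0.48 at 3 weeks, 0.61 at 8 weeks and 0.07 at 11 weeks. The enrichment at 11 weeks was 5.12 in Tg197 and 3.52 in WT at H2-K1 and 3.11 in Tg197 and 2.58 in WT at B2m, close to the ratio of normalized reads. No source used here says how the enrichment was scaled.

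**Figure D3:**
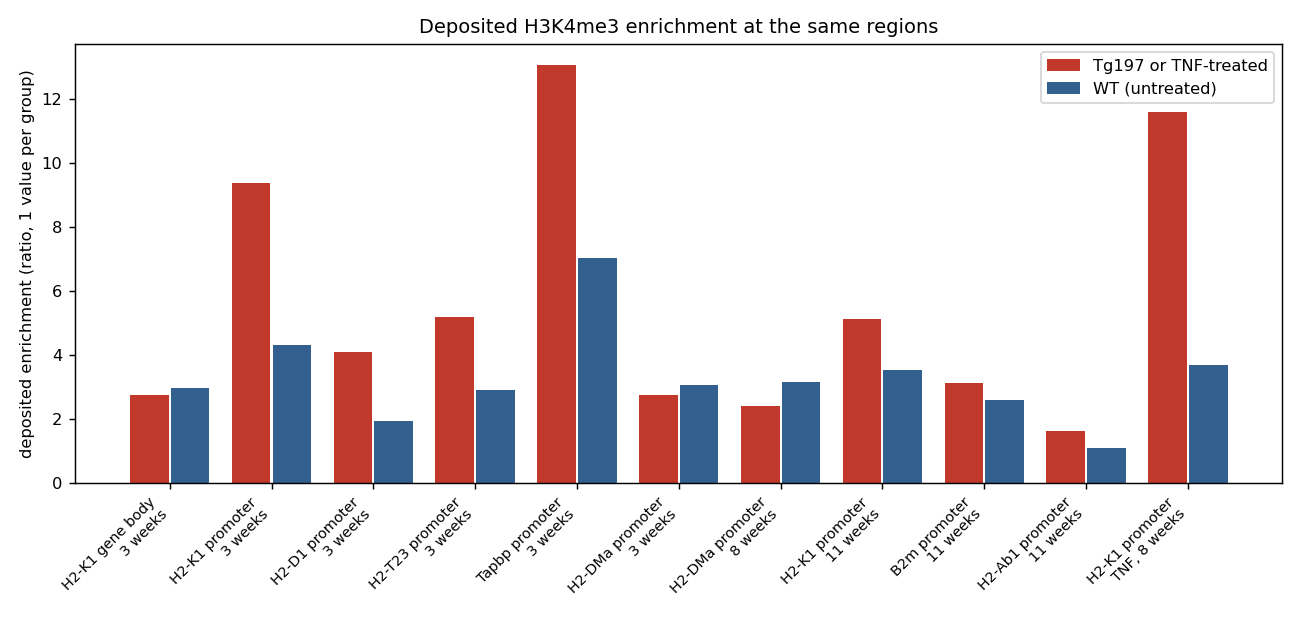
Deposited H3K4me3 enrichment (y axis, a ratio from 0, 1 value per group and so without error bars) at the 11 regions, with Tg197 or TNF-treated cells in red on the left of each pair and untreated WT cells in blue on the right. The TNF pair at H2-K1 stands at 11.61 and 3.67, and the pair at H2-Ab1 at 1.61 and 1.07.

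The tables hold no unchanged regions against which to check the scaling of libraries, and the direction of 4 of the 11 regions turned under another scaling. With the median over all listed regions set equal between libraries, which moved the table median at 3 weeks to -0.04, the lower regions at 3 weeks had 0.06 (H2-K1 gene body) and 0.01 (H2-DMa). With the median over listed regions at most 1 kb from a TSS set equal instead, called promoter scaling here, which moved that median to -1.04, H2-T23 had -0.05 and Tapbp -0.07. The other 7 regions kept their direction under both. Under the first of these the start of H2-K1 had 1.19 at 3 weeks, 0.77 at 11 weeks and 0.96 in the TNF table, and under promoter scaling it had 0.19, 0.29 and 0.35. H2-D1 had 1.23 under the first and 0.23 under promoter scaling, B2m had 0.54 and 0.05, and H2-DMa at 8 weeks had -0.28 and -1.11.

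**Figure D4:**
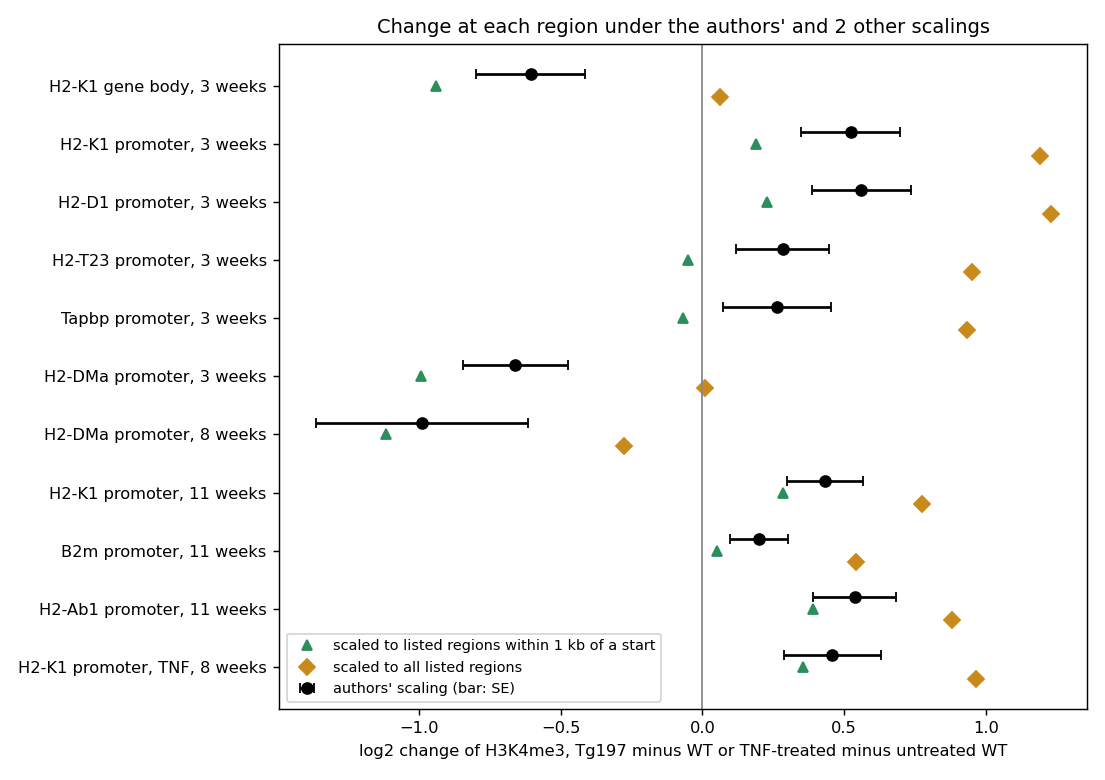
Log2 change (x axis) at the 11 regions with the authors' scaling (black circles, bars are the SE from limma, n = 3 each), with scaling to listed regions at most 1 kb from a start (green triangles) and with scaling to all listed regions (orange diamonds). H2-K1 stays right of 0 at its start in all 3 comparisons, and the H2-K1 gene body, H2-DMa, H2-T23 and Tapbp at 3 weeks each have a value on the other side of 0.

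The listed regions next to those of the 7 genes were mostly lower, as were most regions of each table. At 3 weeks 10 of the 12 nearest neighbours, taken on both sides of each region and including both H2-K1 regions as neighbours of each other, were lower, where 89.5% of the table was, among them regions in Daxx and Rgl2 beside Tapbp and in Bat1a beside H2-D1. At 11 weeks 4 of 6 neighbours were lower, where 67.0% of the table was, with Tap2 and Spg11 among them, and 1 was higher. Both neighbours were lower at 8 weeks, where 77.2% of the table was, and with TNF, where 72.3% was. Between Tapbp and the outermost listed class I gene (chr17:34056401-37407800, the MHC and its flanks), the 3 week table had 117 regions, 10 higher and 105 lower in Tg197. Of the 33 promoter regions there, 8 were higher, 4 of them at the genes described here, and 24 were lower, where 58.8% of all promoter regions of the table were. At 8 weeks the interval had 4 higher and 29 lower regions, and 15 of its 19 promoter regions were lower, where 51.9% of all promoter regions of the table were. At 11 weeks the same interval had 20 higher and 20 lower regions. Of its 17 promoter regions 13 were higher and 4 lower, where 46.6% of all promoter regions were higher and 47.3% lower. Among the 13 were those of H2-K1 and H2-Ab1 and of the further class I genes H2-T9, H2-T10, H2-M3 and H2-Q10, described below. With TNF the interval had 7 higher and 41 lower regions, and of its 30 promoter regions 7 were higher and 22 lower, where 57.1% of all promoter regions were lower.

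Of 63 further genes of antigen presentation, 23 had a listed region in at least 1 table and 40 had none, among them Tap1, Psmb8, Psmb9 and Psmb10. At 3 weeks 2 genes were higher and 11 lower. Of their 18 listed regions 16 fell and 1 rose, where 88.9% of the whole table fell and 4.68% rose. The 18 regions had a median log2 change of -0.66, beside -0.70 over the table. The lower ones were the peptide loading genes Calr, Canx, Pdia3 and Tap2, the proteasome activator gene Psme3, the class II pathway genes Ctss, H2-DMb2 and H2-Ob, the Fc receptor gene Fcgrt and the regulators Irf8 and Nlrc5, mostly in gene bodies. Of the 16 lower regions 7 turned positive with scaling to all listed regions (at Calr, Canx, H2-DMb2, and some of those of Psme3, Pdia3 and Fcgrt), and no limma call of that table held without WT library c. Nlrc5, the activator of class I genes, had the lowest log2 change of the list in that table, with 66.8, 48.7 and 34.0 normalized reads in Tg197, against 134.4, 118.5 and 135.5 in WT, in a region that begins 28539 bp after the start of the gene. The groups were far apart (log2 change -1.42 ± 0.31, limma adjusted p = 0.0143), and the deposited enrichment was 0.97 in Tg197 and 1.68 in WT.

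At 11 weeks the list had 7 genes that were only higher, 4 that were only lower and 2 with regions in both directions. Its regions had a median log2 change of 0.51, beside -0.60 over the table. Of its 16 regions 9 lay within 3 kb of a TSS, against 1771 of 6593 in the table. Within 3 kb the medians were 0.53 over the list and 0.09 over the table. All 16 regions of the list passed limma, as did 6414 of the 6593 listed regions of the table. None of the 16 changed direction under the 2 other scalings. Of promoter regions 7 were higher and 2 lower, where 46.6% of the table's promoter regions were higher. The higher ones included 4 class I genes, H2-T9, H2-T10, H2-M3 and H2-Q10. H2-T9 had 193.8, 242.8 and 257.0 normalized reads in Tg197, against 177.7, 143.0 and 158.4 in WT, without overlap, and rose by 0.53 ± 0.13 (limma adjusted p = 0.00450). H2-M3, which presents formylated peptides, rose by 0.50 ± 0.14, H2-Q10 by 0.62 ± 0.19 and H2-T10 by 0.58 ± 0.18. As copies of a multigene family, H2-T9, H2-T10 and H2-Q10 carry the same doubt about read placement as H2-K1 and H2-D1. Psme2, a subunit of the interferon-inducible proteasome activator, rose by 0.54 ± 0.15. Creb1, Irf8, Pdia3 and Rfxank had lower regions, and Tap2 and Nlrc5 had 1 higher and 1 lower region each inside the gene.

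Irf1, the transcription factor through which interferon and TNF are known to act on class I promoters, was the only gene of that list with a listed region near its start in all 4 tables. At 3 weeks it had 348.9, 326.4 and 309.6 normalized reads in Tg197, against 236.3, 196.7 and 151.6 in WT, and rose by 0.77 ± 0.19 (limma adjusted p = 0.0143). At 8 weeks it had 247.4, 302.1 and 275.6 in Tg197, against 191.5, 238.8 and 184.3 in WT, without overlap, and passed neither the authors' adjusted p (0.247) nor limma (adjusted p = 0.0863, log2 change 0.43 ± 0.20). At 11 weeks it had 449.7, 258.2 and 248.6 in Tg197, against 194.3, 177.0 and 191.0 in WT, and rose by 0.71 ± 0.18, with 1 Tg197 library far above the others. With TNF it had 398.0, 644.7 and 517.2 in treated cells, against 317.5, 391.7 and 337.5 in untreated WT cells, and rose by 0.55 ± 0.18 (limma adjusted p = 0.0460). The 8 week Tg197 and TNF comparisons share their WT libraries. Irf2, a relative of Irf1, was higher at 3 weeks with a log2 change of 0.32 ± 0.22 that did not pass limma (adjusted p = 0.167) and was -0.01 with promoter scaling, and it rose at 11 weeks by 0.32 ± 0.08.

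At 8 weeks 1 gene of the list was higher, Nfyc, a subunit of the factor that binds CCAAT, and 2 were lower, Calr and Psme3. Their regions lay within 3 kb of a TSS, where 520 of 1170 regions of the table were higher and 51.9% lower. None of these genes passed limma, which called 0 regions of that table (1876 at an unadjusted p under 0.05), and voom called 0 as well. Calr turned to 0.11 with scaling to all listed regions. With TNF 2 genes were higher, Irf1 and Erap1, the aminopeptidase that trims class I peptides, and 2 were lower in their gene bodies, Nfyb and Pdia3. The promoter region of Erap1 had 218.9, 202.7 and 214.1 normalized reads in treated cells, against 123.6, 114.0 and 185.0 in untreated WT cells. The groups were apart, and it rose by 0.62 ± 0.22 (limma adjusted p = 0.0462). Limma called 0 regions of that table without TNF-treated library b or c, without untreated WT library a or b, and in the fit without a trend. With 1 of those libraries left out, 1125 to 1234 regions had an unadjusted p under 0.05.

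**Figure D5:**
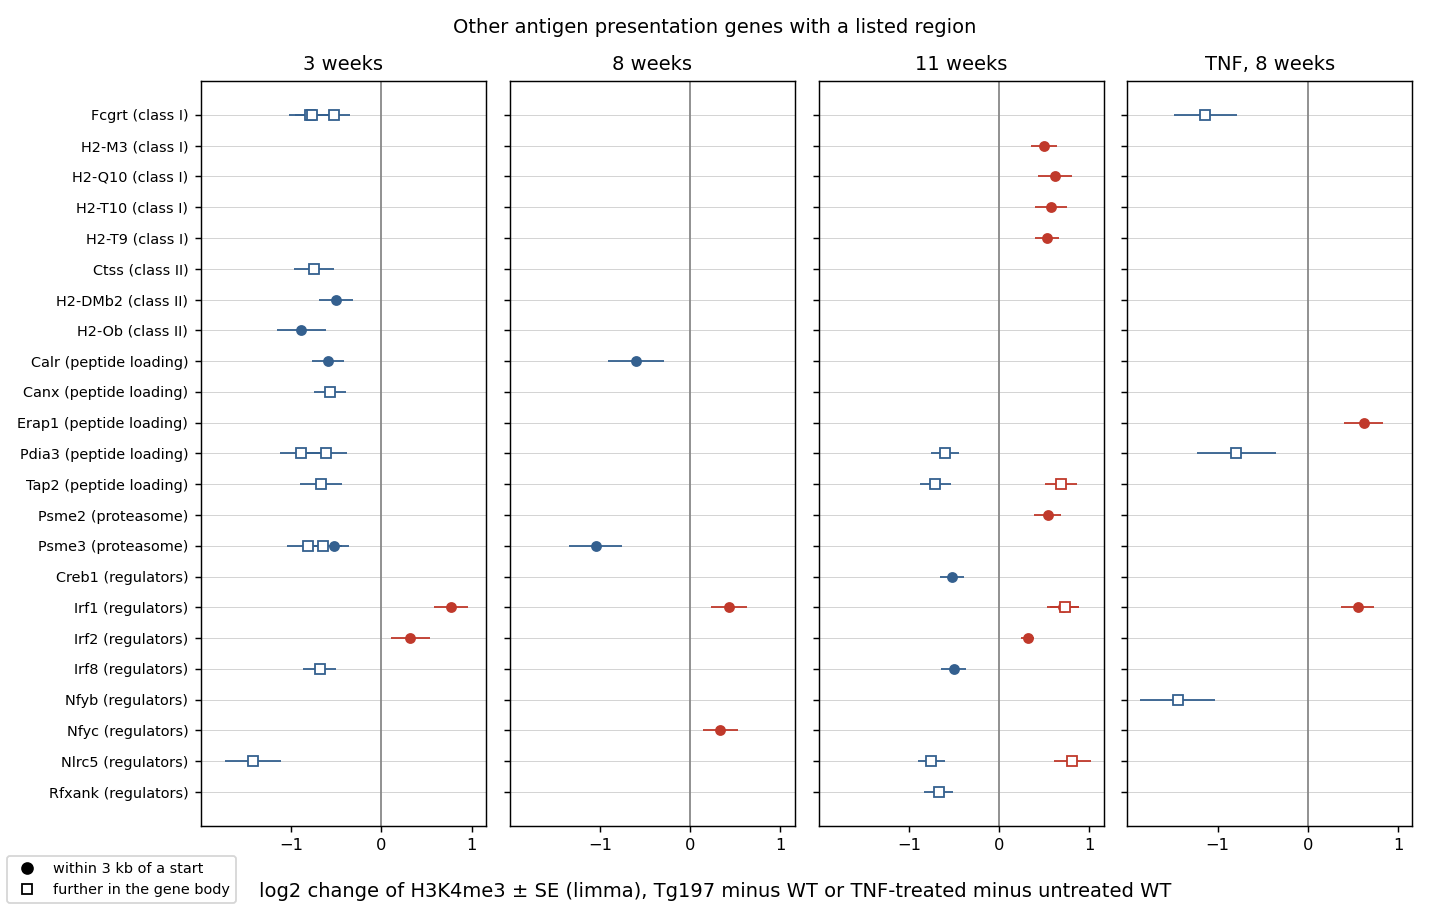
Log2 change of H3K4me3 with its SE from limma (x axes, n = 3 each) for each listed region of the further antigen presentation genes, 1 panel per comparison, filled circles within 3 kb of a start, open squares further in the gene body, red above and blue below 0. At 3 weeks 16 of 18 regions lie left of 0, at 11 weeks 10 of 16 lie right of 0, and Irf1 has a point right of 0 in all 4 panels.

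Some promoters of synovial fibroblast genes were among the listed regions in every table, and at 3 weeks those of Pdpn, Pdgfrb, Vcam1, Col1a1 and Col6a1 had enrichments from 2.15 to 11.29 in Tg197 and from 2.27 to 5.67 in WT. Promoter regions of the 10 fibroblast markers were higher in 3 of 5 cases at 3 weeks, 2 of 2 at 8 weeks, 4 of 4 at 11 weeks and 1 of 3 in the TNF table, and the others were lower. Of all promoter regions, 39.7%, 520 of 1170, 46.6% and 38.9% were higher in these tables, in the same order. With gene bodies included, the markers had 4 higher and 13 lower regions at 3 weeks and 3 higher and 0 lower at 8 weeks. They had 5 higher and 4 lower at 11 weeks and 1 higher and 5 lower with TNF. At 11 weeks the marker promoter regions moved with H2-K1 and H2-Ab1, with sums of 1159 to 1246 normalized reads in Tg197 and 882 to 989 in WT. Their part in those results was not tested. Of 14 markers of antigen presenting cells and other leukocytes, 2 were listed at 8 weeks (Cd79a and Fcer1g), 1 at 11 weeks (Itgam) and 0 with TNF, and those listed were lower in Tg197. The 2 regions at 8 weeks lay within 3 kb of a TSS, where 51.9% of such regions were lower. The 1 region at 11 weeks lay further from a TSS, and 67.0% of all regions of that table were lower. The summed leukocyte marker regions had 120.2 to 198.8 normalized reads in Tg197 and 180.8 to 407.9 in WT at 8 weeks, and 57.4 to 73.7 in Tg197 and 91.6 to 128.0 in WT at 11 weeks. These regions moved with H2-DMa at 8 weeks and, as 1 region, against H2-Ab1 at 11 weeks. Their part in either result was not tested. Enrichments at these marker regions were 1.73 to 1.91 in Tg197 and 2.21 to 2.43 in WT at 8 weeks, and 1.04 in Tg197 and 1.65 in WT at 11 weeks. The tables give no level for the markers that were not listed, Ptprc and Cd68 among them. In bulk cultures, more cells with the mark and more mark per cell cannot be told apart.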

How the data were processed

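H3K4me3 ChIP-seq data of 21 libraries in 7 groups of 3 were analysed, and the 1 input library was not analysed by itself. No source used here says how it entered the authors' values. The submitters' processing notes name mm9, BWA, TopHat, TopHat2, Cufflinks and Cuffdiff without roles or versions, and no source used here names the region caller. The 4 deposited tables hold, per the file headers, for each region 3 normalized counts per group, the group averages (the deposited signal), the authors' enrichment ratio, the authors' log2 fold and the authors' p-values with their adjusted values. The headers say only treatment and control. WT was taken as control, since 54 regions with identical coordinates in the 8 week and TNF tables had equal control reads in 162 of 162 values and the labels tie only WT at 8 weeks to both tables. For genes on the minus strand the upper gene end was taken as the start, which matched the deposited distances.

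Limma 3.58.1 in R 4.3.3 was run per table with a variance trend, on log2(normalized count + 0.5) of all listed regions. It was tested on simulated data. The tables hold normalized counts, where a plan made from the labels had foreseen raw counts or the authors' comparison alone. Whole reads were recovered within a tolerance of 0.02 for values below 1000, and only voom was run on them. Alternatives were pseudocount 5, a mean of at least 50, 2 scalings, no trend and leaving out each library. All listed regions of the 7 genes, every gene of the further list past the authors' adjusted p of 0.05 and neighbouring regions are named, and the genes and lists were chosen with earlier results of these data known. Promoter windows are from RefSeq (GRCm38.p6), aligned with Biopython 1.88. The leukocyte markers at 3 weeks are not reported here.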

Additional observations from a re-analysis of the deposited data

How the results depend on the processing

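Among the log2 changes of the 11 regions, 42 of 55 values under other settings and 53 of 66 with 1 library left out kept their direction and their side of the threshold, and 4 values reversed, namely the H2-K1 gene body (0.0631) and H2-DMa (0.0083) at 3 weeks with scaling to all listed regions, and H2-T23 (-0.0508) and Tapbp (-0.0688) at 3 weeks with promoter scaling (to listed regions at most 1 kb from a TSS). The cause was not tested. H2-K1 did not pass limma with promoter scaling at 3 weeks (adjusted p = 0.419), 11 weeks (0.0528) or with TNF (0.0761), nor did H2-D1 (0.432), and H2-K1 with TNF did not pass without a trend (0.0817) or with voom (0.0575).

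The filter on a mean of at least 50 removed no region, so its values are those of the unfiltered fit and are not counted above. Limma called 12733 regions at 3 weeks (637 rose, 12096 fell), 0 at 8 weeks, 6414 at 11 weeks (1952 rose, 4462 fell) and 1823 with TNF (509 rose, 1314 fell). With scaling to all listed regions it called 946 (940 rose, 6 fell), 414 (338 rose, 76 fell), 2759 (2078 rose, 681 fell) and 1031 (772 rose, 259 fell). With promoter scaling it called 12241 (3 rose, 12238 fell), 1730 (12 rose, 1718 fell), 6005 (1486 rose, 4519 fell) and 2167 (221 rose, 1946 fell). The table medians were then -0.15 and -0.99 at 8 weeks, -0.26 and -0.74 at 11 weeks and -0.07 and -0.68 with TNF. Without a trend limma called 0 with TNF (2175 unadjusted), while voom called 1984. With 1 library left out the counts ran from 0 (without WT library c, 9776 unadjusted) to 13397 at 3 weeks, 0 (376 to 1264 unadjusted) to 2563 (without WT library c) at 8 weeks, 6139 to 6276 at 11 weeks and 0 (1125 to 1234 unadjusted) to 2770 (without untreated WT library c) with TNF. At 3 weeks leaving out WT library a gave 8117 and leaving out WT library b gave 7955. At the authors' adjusted p under 0.001 the regions of the 7 genes past it were 5 of 6 at 3 weeks, 0 of 1 at 8 weeks, 1 of 3 at 11 weeks and 1 of 1 with TNF. The share of the whole tables past 0.001 was not counted, so these counts cannot be read as particular to the 7 genes. Within 3 kb of a TSS the further list had 6 genes past the authors' threshold at 3 weeks and 2 with TNF. Of all promoter regions 39.7% were higher and 58.8% lower at 3 weeks, and 38.9% were higher and 57.1% lower with TNF.

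No paired analysis was possible because the deposited values of a group are not tied to replicate numbers. The planned quasi-likelihood count test was not run, and voom on the recovered reads was run in its place. The regions of the 7 genes held 73 to 1109 reads per library, which limits the precision of each value.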
